A study of Macaca fascicularis with 24 samples.

Results

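The mitochondrial ribosomal proteins were taken as the non-control probe sets whose only gene symbol in the platform annotation begins with MRPL or MRPS followed by a number. This gave 64 probe sets for 51 genes, among 22215 non-control probe sets and 11963 genes on the array. Of the 51 genes, 31 carry a large-subunit symbol (MRPL) and 20 a small-subunit symbol (MRPS). A further probe set carries a pseudogene symbol of this form beside another gene symbol and was left out.

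The mitochondrial ribosome is a separate translation machine inside the mitochondrion. Its small subunit reads the messenger RNA and its large subunit joins the amino acids. It makes the few membrane proteins that mitochondrial DNA encodes, all of them parts of the respiratory chain or of the ATP synthase, which must meet a much larger number of subunits encoded in the nucleus. All protein components of this ribosome are themselves encoded in the nucleus, made in the cytosol and imported, whereas its ribosomal RNAs come from mitochondrial DNA. In the aortic wall, made largely of smooth muscle cells and matrix, mitochondria supply part of the energy for contraction.

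Thoracic aortas of cynomolgus macaques, Macaca fascicularis, gave total RNA that was hybridised to a human expression array, 1 array per sample and 24 arrays in all. The 4 groups of 6 arrays were old males (mean age 20.0 years), young males (6.6 years), old females (21.2 years) and young females (7.2 years). The labels name no treatment and no genotype for any group, and give no age for a single animal. The design compares old with young animals within each sex. In 3 pairs of arrays the values were closer than in any other pair, namely in young females 3 and 4, in young males 3 and 4 and in old females 1 and 4, so each pair was averaged and counted once. This left 6 old males, 5 young males, 5 old females and 5 young females. The labels do not say that the arrays of a group came from separate animals, so p-values measure the spread between these samples, which may be partly technical.

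Levels are given as log2(intensity + 16) after quantile normalisation, and a change is a difference on that scale. The smooth muscle markers ACTA2, MYH11 and TAGLN lay between 12.84 and 15.65 in every sample. Others of the 10 smooth muscle markers varied more: DES ran from 8.06 to 12.86 and SMTN from 9.78 to 13.81. The mean of the 10 was 13.57 in old males, 13.52 in young males, 12.88 in old females and 13.31 in young females. UCP1, the uncoupling protein of brown fat, ranged from 5.26 to 13.28. Of the 21 samples, 6 stood apart from the rest by their median correlation with the other arrays (below 0.85): old males 2 and 4, old females 2 and 6, young male 1 and young female 3. Their spiked-in hybridisation controls read 12.84 to 14.32, against 11.19 to 12.13 in the other 15. Their actin 3′ to 5′ ratio, a measure of RNA quality, was 1.13 ± 0.47 in log2 (SD, n = 6). In the other 15 it was 0.10 ± 0.38 (SD, n = 15). The main counts, medians and correlations are also given without these 6 samples.

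Most members were read above the array's middle. A gene was tested when at least 1 of its probe sets had a mean at or above the median of all probe sets, 7.60. This held for 42 of the 51 genes, 28 of 31 with large-subunit and 14 of 20 with small-subunit symbols, and for 46 of the 64 probe sets. Over the whole array it held for 6943 of 11963 genes and for 11108 of 22215 probe sets. Where several probe sets of a gene passed, the brightest was used. The mean levels of the 42 ran from 7.63 (MRPS16) to 11.50 (MRPS14), with a median of 9.31. This placed the median tested member at the 78.1 percentile of all probe sets. Only probe sets at or above the 50 percentile could enter, so a median above 50 follows from the filter. Brightness depends on the probes and on how well human probes match macaque RNA, so these levels rank no gene against another. The 9 genes with no tested probe set were MRPL41, MRPL44, MRPL52, MRPS2, MRPS7, MRPS12, MRPS18C, MRPS27 and MRPS28. MRPS12, a protein of the decoding centre, had 4 probe sets, with means of 5.32 to 6.60. The means of the 18 untested probe sets ran from 4.51 to 7.58.

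The median member varied slightly less across the series than the median tested gene. The SD over the 21 samples ran from 0.16 for MRPL23 to 0.91 for MRPS16, with a median of 0.39, against 0.44 over all 6943 tested genes. The dimmest tested members, MRPS16 and MRPS15, were also the most variable ones, with an SD of 0.91 and 0.87. Only 4 genes had more than 1 tested probe set, and their probe sets followed each other unevenly over the samples. Pearson's r between them was 0.57 for MRPL9, 0.48 for MRPS18B, 0.28 for MRPL57 and 0.09 for MRPS30. A result on MRPS30 or MRPL57 is therefore a result on 1 probe set.

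In males, old aortas had a higher mean than young ones for 29 of the 42 tested members, and no single member passed the test. The median change of old against young was 0.16, against -0.01 over all 6943 tested genes, of which 48% did. The large-subunit genes had a median change of 0.18, with 19 of 28 higher, and the small-subunit genes one of 0.14, with 10 of 14 higher. None of the 46 member probe sets reached an adjusted p of 0.05 in limma with Benjamini-Hochberg adjustment over all 11108 probe sets, where 0.018% of probe sets did. At an unadjusted p below 0.05 there was 1 member among 42, against 3.62% of all tested genes, so the share of members called was not above the background.

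The mean over the tested members was 9.28 ± 0.22 (SD, n = 6) in old males and 9.17 ± 0.11 (SD, n = 5) in young males. The old males ran from 8.96 through a median of 9.26 to 9.64. The young males read 9.36, 9.10, 9.12, 9.12 and 9.14. The groups overlapped: old male 2 lay below every young male, and young male 1 lay above all old males except old male 4. Leaving out old male 4 gave a median change of 0.10, with 26 of 42 higher, and leaving out young male 6 gave 0.09. Without the samples that stand apart it was 0.18, with 34 of 42 higher.

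**Figure D1:**
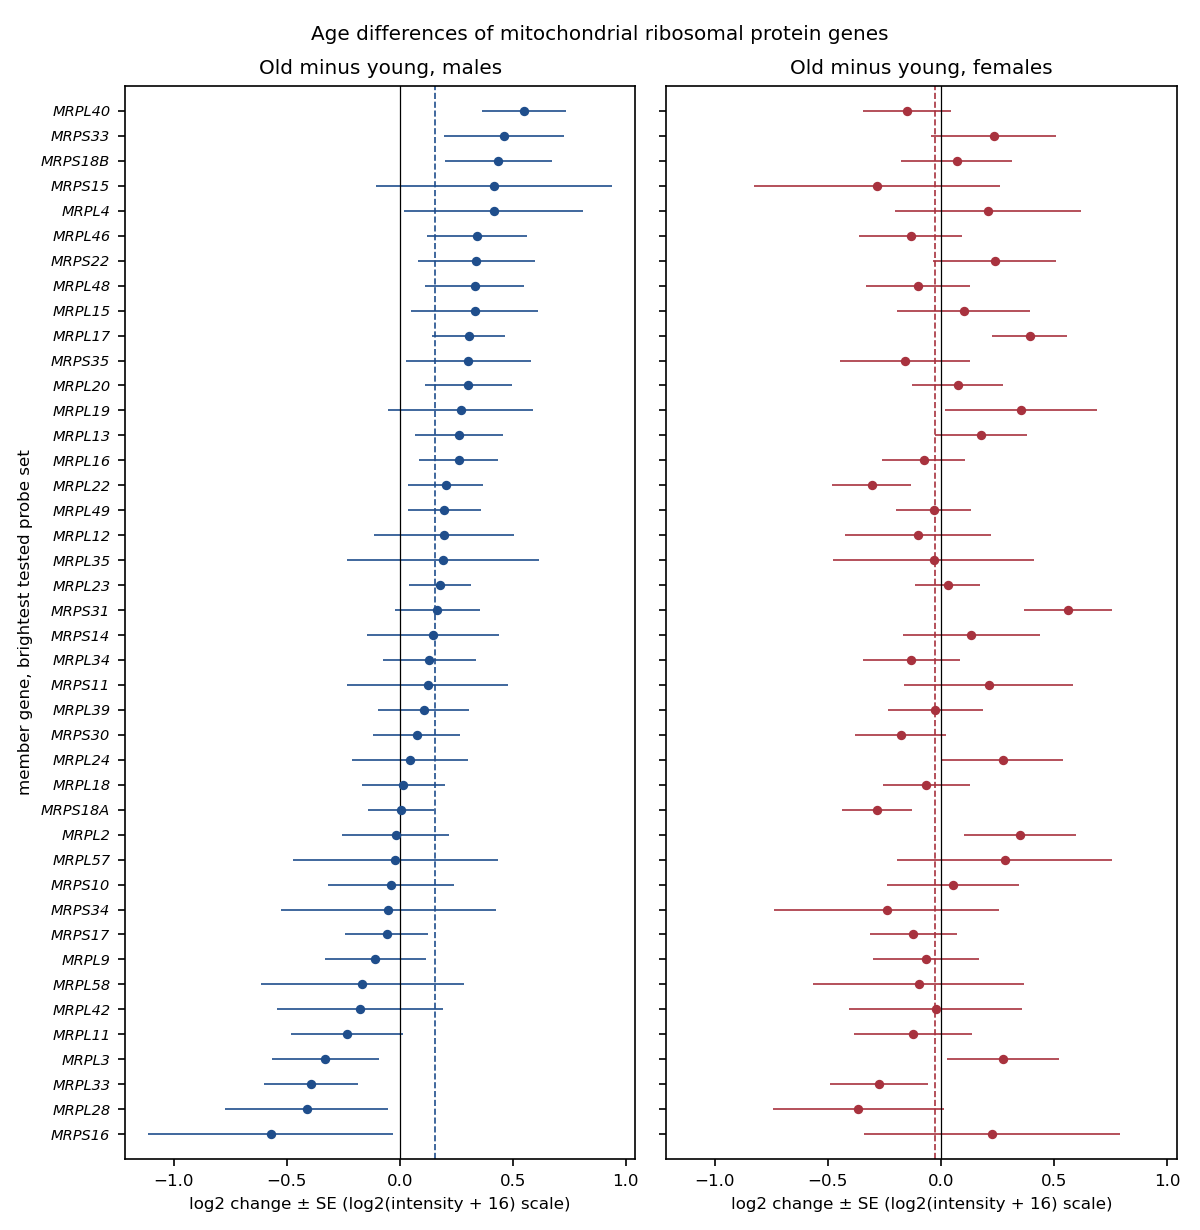
Change of old against young for the 42 tested mitochondrial ribosomal protein genes in males (left) and females (right), on the log2(intensity + 16) scale. Points are the fitted changes with their standard errors, genes are in the order of the male change, and the dashed lines mark the median member, 0.16 in males and -0.03 in females.

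MRPL40, a protein of the large subunit, was the one member whose old and young males did not overlap. Its level in old males ran from 9.24 through a median of 9.36 to 10.30, the highest being old male 4. The young males read 8.97, 8.82, 9.10, 9.02 and 8.79. Every old male lay above every young male, a pattern that 0.317% of all tested genes had in this direction and 0.374% in the other. The change was 0.55 ± 0.19 (SE), with an unadjusted p of 0.0076 and an adjusted p of 0.99991 in limma. Leaving out old male 4 gave a change of 0.39, and leaving out the samples that stand apart gave 0.38. Over 35 alternative settings it ran from 0.38 to 0.60 and the smallest adjusted p was 0.179.

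The other members with the highest male changes did not reach an unadjusted p of 0.05. They were MRPS33 with 0.46 ± 0.26 (SE), MRPS18B with 0.44 ± 0.24, MRPS15 with 0.42 ± 0.52, MRPL4 with 0.42 ± 0.40 and MRPL46 with 0.34 ± 0.22. MRPS15 and MRPL4 have counterparts in bacterial ribosomes, whereas MRPS33 and MRPL46 belong to the proteins that mitochondrial ribosomes added. The 2 probe sets of MRPS18B, 1 of 3 related proteins named S18, differed in sign: the dimmer one had a change of -0.16 ± 0.29. At the other end stood MRPS16 with -0.57 ± 0.54, MRPL28 with -0.41 ± 0.36, MRPL33 with -0.39 ± 0.21, MRPL3 with -0.33 ± 0.24, MRPL11 with -0.23 ± 0.25 and MRPL42 with -0.18 ± 0.37. MRPL11 forms part of the site where translation factors bind the large subunit. Single samples weighed heavily on several of these changes. Without old male 2 the change was -0.24 for MRPS16, -0.10 for MRPL28, -0.18 for MRPL3 and -0.13 for MRPL11. It was, without old male 4, 0.21 for MRPS15 and MRPS18B, 0.22 for MRPL46, -0.64 for MRPL28 and -0.44 for MRPL42. Without young male 1 it was 0.15 for MRPL4, -0.25 for MRPL33 and -0.05 for MRPL11. MRPL40 and MRPS33 moved by less than 1.5 times with any sample left out. The 95% interval included 0 for 41 of the 42 members.

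In females, the members were spread about evenly around no difference. Old females had the higher mean for 19 of 42 members, and the median change was -0.03, against -0.02 over all tested genes, of which 46.3% were higher. The small-subunit genes had a median of 0.06 with 8 of 14 higher, and the large-subunit genes one of -0.03 with 11 of 28 higher. No member probe set passed the adjusted threshold in limma, as 0% of the 11108 probe sets did. At an unadjusted p below 0.05 there were 2 members of 42, against 2.87% of all tested genes. No member separated the female groups, against 0.202% of all tested genes without overlap and higher in old females and 0.158% lower.

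The mean over the tested members was 9.24 ± 0.22 (SD, n = 5) in old females and 9.22 ± 0.15 (SD, n = 5) in young females. The old females read 9.24, 8.92, 9.52, 9.31 and 9.21. The young females read 9.18, 9.40, 9.04, 9.14 and 9.33. The groups covered nearly the same range, and the lowest sample of each stood apart from the other arrays. The sign of the female median depended on the samples: without those that stand apart it was 0.10, with 25 of 42 higher. It was also above 0 without old female 2 (0.07), old female 6 (0.02), young female 2 (0.05) or young female 6 (0.0075), and was -0.09 without old female 3 and -0.06 without young female 3.

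MRPS31, a small-subunit protein, had the highest female change. The old females read 9.19, 9.77, 9.56, 9.50 and 9.49, and the young females 9.09, 8.83, 8.43, 8.71 and 9.64. The groups overlapped through young female 6, which lay above all old females except old female 2. The change was 0.56 ± 0.20 (SE), with an unadjusted p of 0.0092 and an adjusted p of 0.99963 in limma. Over the alternatives it ran from 0.35, without the samples that stand apart, to 0.74, with a smallest adjusted p of 0.810. In males its change was 0.17 ± 0.19.

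MRPL17, a large-subunit protein with a bacterial counterpart, was the other member below an unadjusted p of 0.05 in females. The old females read 9.72, 10.06, 9.99, 9.87 and 10.32, and the young females 9.57, 9.76, 9.93, 9.39 and 9.36. Young females 2 and 3 reached into the range of the old females. The change was 0.39 ± 0.17 (SE), with an unadjusted p of 0.028 and an adjusted p of 0.99963 in limma. Without the samples that stand apart it was 0.34. In males it was 0.30 ± 0.16.

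The next female changes were 0.35 ± 0.33 (SE) for MRPL19, 0.35 ± 0.25 for MRPL2, 0.28 ± 0.47 for MRPL57 and 0.27 ± 0.27 for MRPL24. MRPL2 lies near the centre of the large subunit where peptide bonds form. At the low end were MRPL28 with -0.37 ± 0.38, MRPL22 with -0.31 ± 0.17, MRPS15 and MRPS18A with -0.28 ± 0.54 and -0.28 ± 0.15, MRPL33 with -0.27 ± 0.22 and MRPS34 with -0.24 ± 0.50. MRPL22 lines the tunnel through which the new protein leaves the ribosome. MRPS18A carries a small-subunit symbol but sits in the large subunit, as MRPS30 does. MRPS15 and MRPL57 changed sign in females without the samples that stand apart, to 0.43 and -0.31. MRPL28 was -0.04 and MRPL24 0.15 without old female 2, MRPL19 was 0.13 without old female 3, and MRPS34 was -0.09 without old female 5.

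**Figure D2:**
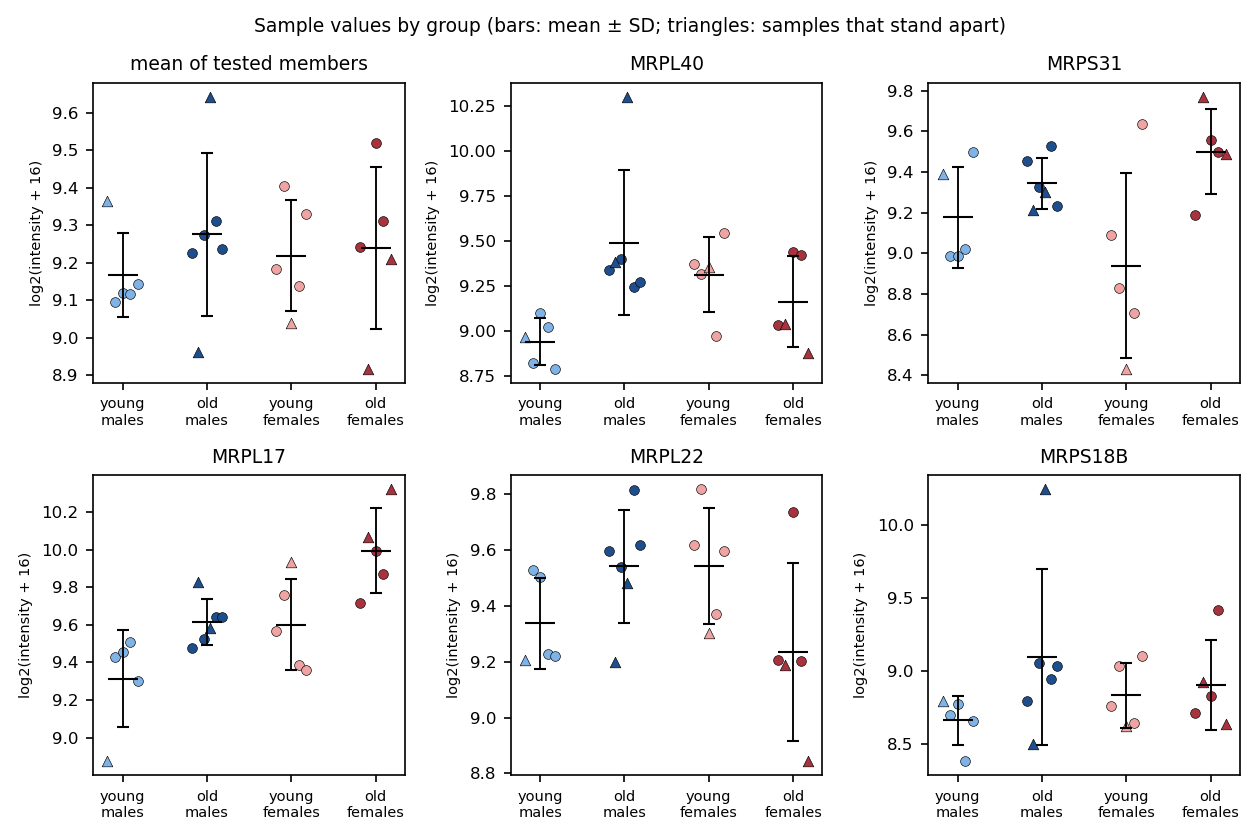
Values of each sample by group for the mean of the tested members and for MRPL40, MRPS31, MRPL17, MRPL22 and MRPS18B, in log2(intensity + 16). Points are samples, triangles are samples that stand apart from the other arrays, and bars give the group mean and SD. The old and young males do not overlap for MRPL40, and all other pairs of age groups shown overlap.

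The difference between the age effects of the sexes (male change minus female change) was tested for each member. Its median over the 42 members was 0.12, with 26 above 0, against 0.02 over all tested genes, of which 52.4% were above 0. The median was 0.02 without old male 4, with 22 of 42 above 0, and 0.07 without the samples that stand apart, with 24 of 42 above 0. It was also 0.07 without old female 2 and 0.075 without young female 2. No member passed the adjusted threshold in limma, as 0% of probe sets did, and 2 of 42 had an unadjusted p below 0.05, against 1.8% of all tested genes. These were MRPL40, with a difference of 0.70 ± 0.27 (SE) and an unadjusted p of 0.017, and MRPL22, with 0.51 ± 0.24 and an unadjusted p of 0.045. Both had an adjusted p of 0.999937. The differences were 0.38 for MRPL40 and 0.49 for MRPL22 without the samples that stand apart.

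MRPL40 had a female change of -0.15 ± 0.20 (SE) beside its male change of 0.55. Its old females read 9.03, 9.04, 9.44, 9.42 and 8.87, and its young females 9.37, 9.32, 9.35, 8.97 and 9.54. The young females lay in the range of the old males rather than in that of the young males, young female 5 excepted. MRPL22 read from 9.20 through a median of 9.57 to 9.82 in old males and 9.21, 9.53, 9.50, 9.23 and 9.22 in young males. In females it read 9.21, 9.19, 9.74, 9.20 and 8.84 in the old and 9.62, 9.82, 9.30, 9.37 and 9.60 in the young. Old and young overlapped in both sexes.

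Among the other members, the difference was highest for MRPS15 with 0.70 ± 0.75 (SE), followed by MRPL46 with 0.48 ± 0.32, MRPS35 with 0.46 ± 0.40 and MRPL48 with 0.43 ± 0.32. It was lowest for MRPS16 with -0.80 ± 0.78 and MRPL3 with -0.60 ± 0.34, then for MRPS31 with -0.40 ± 0.27, MRPL2 with -0.37 ± 0.34, MRPL57 with -0.30 ± 0.66 and MRPL24 with -0.23 ± 0.37. None of these reached an unadjusted p of 0.05. MRPS31 had a difference of -0.09 without the samples that stand apart.

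The members followed the nuclear-encoded genes of the respiratory chain and ATP synthase from sample to sample. The mean over the 42 tested members and the mean over 62 tested respiratory chain genes (of 64 on the array, none of them a member) had a Pearson's r of 0.83 and a Spearman's rho of 0.85 over the 21 samples. With each sample set against its group mean, r was 0.83. It was 0.82 over the 15 samples without those that stand apart and 0.93 over the 6 that do. Both means come from the same arrays on the same normalised scale, so an error of an array enters both, and r is given as a description. The mean of all tested genes had an r of 0.31 with the member mean. The actin 3′ to 5′ ratio had an r of 0.00 with the member mean over all samples. Without the samples that stand apart r was 0.56 and rho 0.23, and r was 0.73 with each of these samples set against its group mean. With the respiratory chain mean the ratio had an r of 0.24, and of 0.40 without the samples that stand apart. The part of RNA quality in these correlations was not tested.

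The member mean moved over a narrower range than the respiratory chain mean. A mean over genes that are less alike varies less by itself. The median pairwise r was 0.14 between members and 0.49 between respiratory chain genes, and the median single member had an SD of 0.39. The SD over samples was 0.17 for the member mean and 0.38 for the respiratory chain mean, and the fitted slope was 0.38 of a log2 unit of the member mean for each log2 unit of the respiratory chain mean. Old male 4 was highest on both means. Its respiratory chain mean of 11.58 lay 1.37 above the median sample, and its member mean of 9.64 lay 0.42 above. In that sample 49 of the 62 respiratory chain genes and 16 of the 42 members had their highest value of all samples, against 12.2% of all tested genes. When old male 4 was left out, r was 0.76 and the slope 0.44. Without old male 4 and young male 1, the samples farthest from the median on the respiratory chain mean, r was 0.77.

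**Figure D3:**
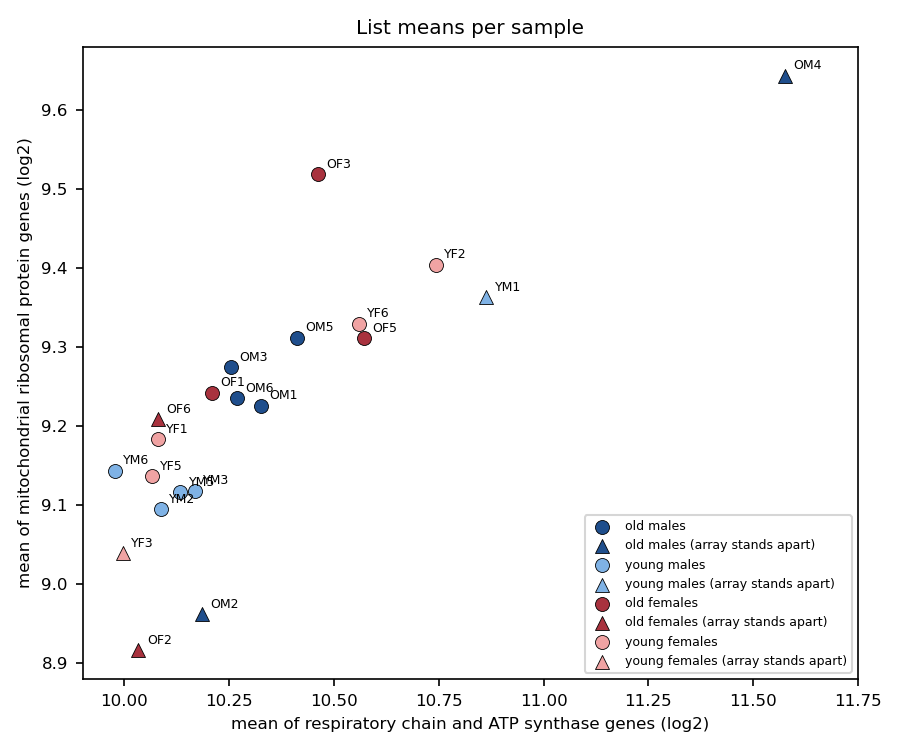
Mean of the 42 tested mitochondrial ribosomal protein genes against the mean of the 62 tested respiratory chain and ATP synthase genes, both in log2(intensity + 16), for the 21 samples (OM, old male; YM, young male; OF, old female; YF, young female). Triangles are samples that stand apart. The samples rise together with an r of 0.83, and old male 4 lies at the far upper right.

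By complex, the member mean had an r of 0.89 with complex I, which takes electrons from NADH, and one of 0.64 with complex II, which oxidises succinate. With complex III the r was 0.78, with complex IV, the oxygen-consuming cytochrome c oxidase, 0.70, and with complex V, the ATP synthase, 0.77. Complex II, which has no subunit encoded by mitochondrial DNA, had the lowest r of the 5, over 3 tested genes. Without old male 4 the values were 0.85, 0.40, 0.66, 0.53 and 0.65 in the order I to V. Without the samples that stand apart they were 0.85, 0.61, 0.66, 0.80 and 0.75. With each of these 15 samples set against its group mean, complex III was lowest with 0.38, and complex II had 0.50. The differences between these correlations were not tested.

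Large protein complexes outside the mitochondrion were set beside the members in the same way. The proteasome, the main protease of the cytosol and nucleus, had an r of 0.60 with the member mean, 0.58 without old male 4 and 0.55 without the samples that stand apart. Of these, the value without old male 4 lay above those of complexes II and IV. Without old female 2 and old male 2, the samples farthest out on the proteasome mean, the r of the proteasome was 0.33. The cytosolic ribosomal proteins, 53 tested genes, had an r of -0.06, which became 0.59 over the 15 samples without those that stand apart. The small-subunit and large-subunit members had an r of 0.83 with each other, and of 0.77 without the samples that stand apart.

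Gene by gene, the relation to the respiratory chain was uneven. Pearson's r of a member with the respiratory chain mean ran from -0.27 to 0.83, with a median of 0.31. It was above 0 for 35 of 42 members, against 49.7% of all tested genes, and above 0.5 for 16 of 42, against 7.58%. Without the samples that stand apart the median was 0.35, and again 35 were above 0 and 16 above 0.5 (10.4% of all tested genes), 11 of these 16 being the same genes. Without old male 4 the median was 0.30 and 6 members were above 0.5, against 3.54% of all tested genes. The number of members with a high r thus depended on which samples were left out, whereas the median r moved little. The share over all tested genes also fell without old male 4.

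The highest r belonged to MRPS18B (0.83), MRPS30 (0.79), MRPL15 (0.77), MRPL40 (0.73), MRPL12 (0.72) and MRPL13 (0.70). MRPL12 belongs to the flexible stalk of the large subunit and is also known to bind the mitochondrial RNA polymerase. Without the samples that stand apart r stayed between 0.71 and 0.79 for the first 4 and was 0.25 for both MRPL12 and MRPL13. Without old male 4 it was 0.56 for MRPS18B, 0.62 for MRPS30, 0.61 for MRPL15, 0.39 for MRPL40, 0.48 for MRPL12 and 0.54 for MRPL13. MRPS18B shows how much 1 sample weighs: its old males ran from 8.50 through a median of 8.99 to 10.25 in old male 4, and no other sample of the series lay above 9.42. The ranking also depends on the probe set used. The 2 tested probe sets of MRPS30 had an r of 0.09 with each other. MRPL57 had an r of 0.66 with the respiratory chain mean on its dimmer tested probe set and of 0.15 on the brightest.

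The lowest r belonged to MRPS10 (-0.27), MRPS34 (-0.25), MRPL17 (-0.21), MRPL18 (-0.17), MRPL33 (-0.12) and MRPL58 (-0.04). MRPL58 can release stalled peptides from the ribosome. MRPL17 was the most changed of these without the samples that stand apart, with an r of 0.59. With arrays centred on their median in place of quantile normalisation, r was 0.43 for MRPS10, 0.46 for MRPL18 and 0.25 for MRPL33. Leaving out old male 4 gave 0.03 for MRPS10, 0.24 for MRPS34, 0.29 for MRPL33 and 0.23 for MRPL58, and leaving out the samples that stand apart gave 0.25 for MRPS10 and for MRPL33. The sign of these low values thus depended on the scaling or on the samples. MRPL18 stayed below 0 with any 1 sample left out (-0.26 to -0.05) and without the samples that stand apart (-0.30).

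**Figure D4:**
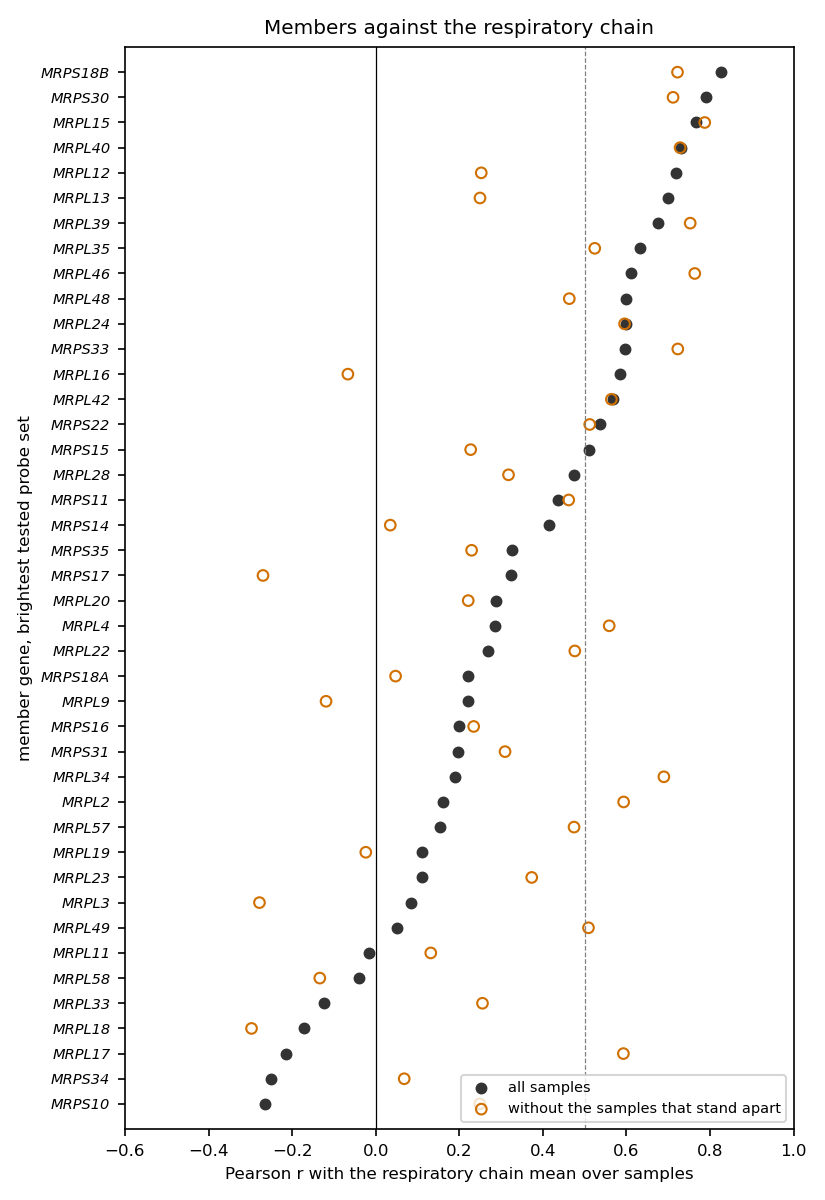
Pearson's r of each of the 42 tested members with the mean of the respiratory chain and ATP synthase genes, over all 21 samples (filled) and without the 6 samples that stand apart (open). The dashed line marks 0.5, which 16 members exceed in each set of samples.

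Members with and without a bacterial counterpart, as read from the numbering of the names, were compared by their counts. Of 28 tested members with a counterpart, 8 had an r above 0.5 and the median r was 0.28. Of 14 tested members particular to mitochondrial ribosomes, 8 had an r above 0.5 and the median r was 0.55. In males the median change was 0.14 for the first kind and 0.18 for the second. In females it was 0.04 and -0.07. No test was made between the kinds.

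The members were also less alike among themselves than the respiratory chain genes were. Over the 861 pairs of tested members the median Pearson's r was 0.14, and 578 pairs were above 0. Over the pairs of respiratory chain genes it was 0.49. Without the samples that stand apart the medians were 0.14 and 0.41.

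**Figure D5:**
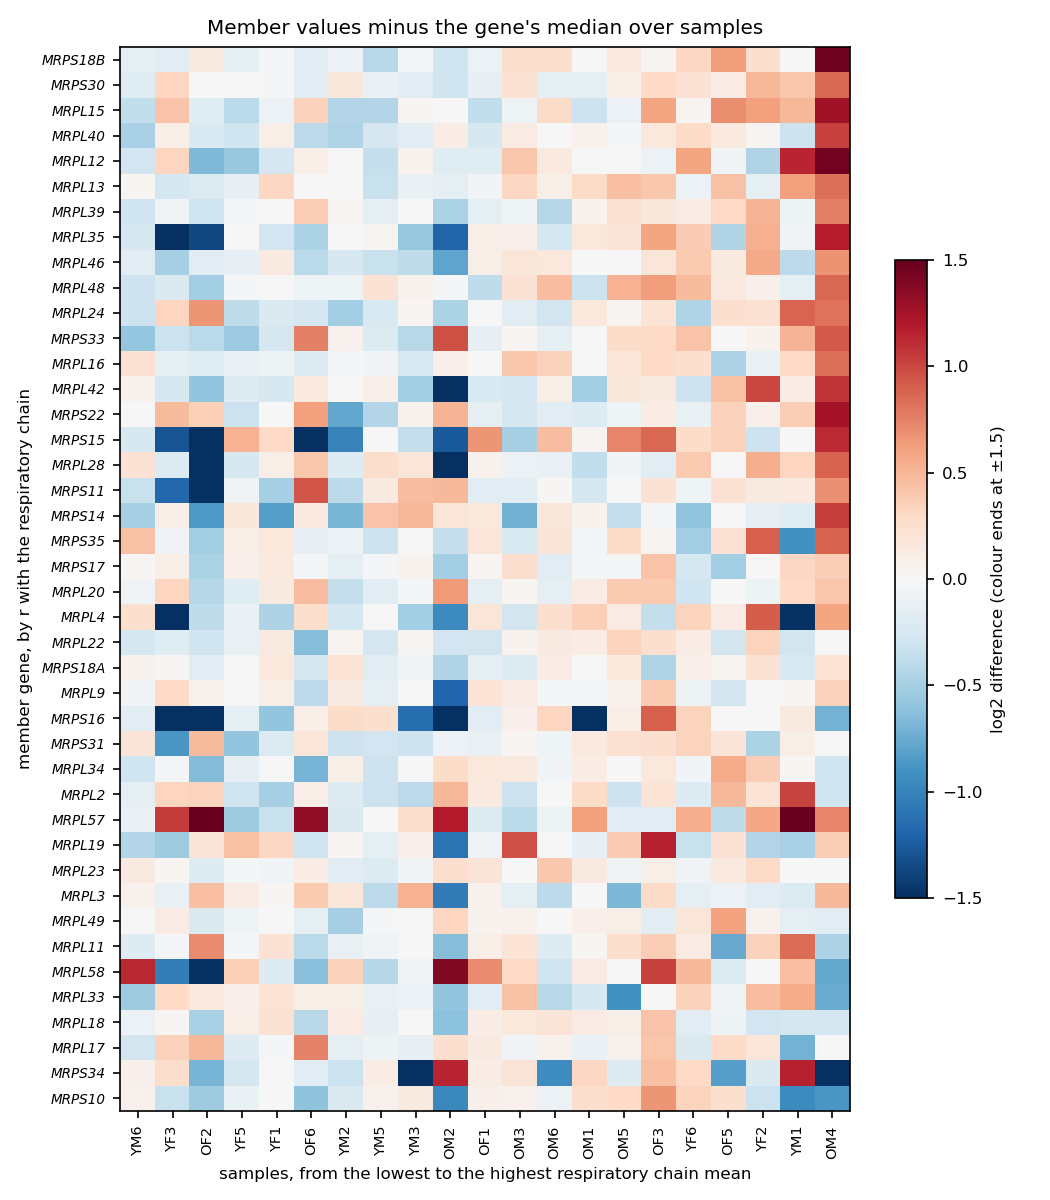
Level of each of the 42 tested members in each sample minus the gene's median over samples, as a colour from -1.5 (blue) to 1.5 (red) in log2 units. Samples (OM, YM, OF, YF with their replicate number) run from the lowest to the highest respiratory chain mean, and genes from the highest to the lowest r with that mean. Red gathers in the upper right, most of all in old male 4.

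The age difference of the respiratory chain genes in males rested on old male 4 more than that of the members did. Old males had the higher mean for 53 of 62 respiratory chain genes, with a median change of 0.28, and without old male 4 the median was 0.02. The members' median went from 0.16 to 0.10. Without all 6 samples that stand apart, young male 1 among them, the medians were 0.21 for the respiratory chain genes and 0.18 for the members. In females the respiratory chain median was 0.02, with 33 of 62 higher. None of the 5 complexes held a gene past the adjusted threshold in any of the comparisons.

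Markers of fat cells and of other cell types were set beside both means. The markers of brown fat cells, 5 tested of 7 on the array, had an r of 0.54 with the member mean and of 0.77 with the respiratory chain mean, and the general fat cell markers, 9 tested of 13, one of 0.24 and 0.60. With the member mean these values were 0.37 and 0.07 without old male 4, and 0.50 and 0.41 without the samples that stand apart. Without old male 4 and young female 2 the brown fat value was 0.25. The brown fat list includes COX7A1, which is also a respiratory chain gene. The mean of the tested brown fat markers ran from 7.30 to 10.72 in old males, 7.63 to 8.92 in young males, 7.76 to 9.98 in old females and 7.66 to 10.51 in young females. The mean of the tested fat cell markers ran from 8.17 to 11.84, 7.80 to 11.65, 8.22 to 10.98 and 8.56 to 11.08 in the same order. In old against young males 8 of the 9 tested fat cell markers had a higher mean, with a median change of 1.53 and 3 genes at an unadjusted p below 0.05, and the group means were 10.56 ± 1.32 (SD, n = 6) and 9.15 ± 1.53 (SD, n = 5). In females 5 of 9 were higher, with a median of 0.01. With the brown fat mean as a covariate, an alternative chosen after seeing the data, the male median of the members was 0.10, and with the fat cell mean it was 0.09. ADIPOQ, a defining hormone of fat cells, was not among the tested genes and ran from 4.61 to 7.62. All 7 tested endothelial markers were higher in old than in young males; their median change was 0.34, 2 of them at an unadjusted p below 0.05, and 3 of 7 in old females, with a median of -0.17. All 7 were also above 0 in the difference between the sexes, with a median of 0.53. Their mean had an r of 0.22 with the member mean, of -0.09 without old male 4 and of 0.56 without the samples that stand apart. The macrophage markers, 9 tested, had an r of 0.31 with the member mean, of 0.59 without old male 4 and of 0.76 without the samples that stand apart, and 5 of 9 were higher in old males. Of the 10 tested smooth muscle markers 3 were higher in old males and 1 in old females. All 10 were above 0 in the difference between the sexes, with a median of 0.34. The smooth muscle mean had an r of 0.05 with the member mean, of 0.03 without old male 4 and of -0.57 without the samples that stand apart. Of the 6 tested fibroblast and matrix markers 1 was higher in old males and 0 in old females. The median changes were -0.55 and -0.49, with 3 and 1 genes lower at an unadjusted p below 0.05. Their mean had an r of -0.07 with the member mean, of 0.23 without old male 4 and of 0.20 without the samples that stand apart. No marker of these lists passed the adjusted threshold in the age comparisons. The part of these cell types in the members' levels was not tested. The fits with a fat covariate do not tell it apart from age, since the fat cell mean was 10.56 in old and 9.15 in young males. In bulk tissue, fewer cells of a type and less RNA per cell cannot be told apart.

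The genes that work with the mitochondrial ribosome showed no called change either. Of the 4 tested translation factors, of 7 on the array, 3 were higher in old males, and the median change was 0.22. TUFM and TSFM, an elongation factor that brings transfer RNA to the ribosome and the factor that recharges it, had changes of 0.18 ± 0.22 (SE) and 0.58 ± 0.36 in males and of -0.30 ± 0.23 and -0.01 ± 0.37 in females. Of the 8 tested genes for charging mitochondrial transfer RNA (of 15), 6 were higher in old males and 6 in old females, with medians of 0.08 and 0.06. Of the 9 tested assembly factors (of 13), 5 were higher in old males with a median of 0.02, and 7 in old females with a median of 0.19. RBFA, which binds the small subunit while it matures, had 0.49 ± 0.42 in males and 0.75 ± 0.43 in females.

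Of the 4 genes for mitochondrial DNA transcription and RNA handling that were tested (of 8), 3 were higher in old males and 2 in old females. Of the 6 tested nuclear regulators (of 8), 2 were higher in old males and 3 in old females. Of 4 further genes tied to this ribosome under other symbols, all tested (the subunit proteins DAP3, PTCD3 and GADD45GIP1, and OXA1L, which inserts the new proteins into the inner membrane), none was higher in old males and 2 were in old females. GADD45GIP1 had a female change of -0.92 ± 0.33 (SE), with an unadjusted p of 0.011 and an adjusted p of 0.99963 in limma, and a male change of -0.03 ± 0.32. It was the only gene of these 6 lists with an unadjusted p below 0.05 in either sex, and none passed the adjusted threshold. The mean of the translation factors had an r of 0.47 with the member mean (0.11 without old male 4, and 0.55 without the samples that stand apart), and that of the assembly factors one of 0.40 (0.18 without old male 4, and 0.64 without the samples that stand apart). For the 4 genes under other symbols r was 0.53, with 0.57 without old male 4 and 0.37 without the samples that stand apart. It was 0.33 for the transfer RNA charging genes, 0.39 for the transcription and RNA genes and 0.29 for the nuclear regulators. Without the samples that stand apart these were 0.18, 0.19 and 0.16.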

How the data were processed

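Each of the 24 arrays has a deposited table of linear intensities for 22277 probe sets, groups of short probes that read 1 transcript. Per the labels' protocols, total RNA was reverse-transcribed and transcribed into biotin-labelled RNA. The steps by which the authors summarised and scaled their arrays are not given in the sources used here. The trimmed mean of the intensities was 499.8 to 499.9 on every array, and array medians ran from 144.2 to 264.1. The number of arrays limits the precision, and human probes can under-read macaque RNA.

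The 62 control probe sets were left out. The others were converted to log2(intensity + 16), which understates changes of dim genes, and quantile normalised. Probe sets at or above the median mean (11108) were tested with limma 3.58.1 in R 4.3.3, with 1 mean per group over 21 samples and an intensity trend, and Benjamini-Hochberg adjustment within each comparison at 0.05. The procedure was tested on simulated data. An array pair was averaged where the SD of its log2 difference was below 0.4. Symbols came from the platform annotation, with older ones of other lists updated: 19064 probe sets had 1 symbol and 1043 several.

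The members and lists were chosen with earlier results of these data known. Named were, per comparison, the 6 members with the highest and the 6 with the lowest change, every member at an unadjusted p below 0.05, the 6 highest and 6 lowest r with the respiratory chain, genes with over 1 tested probe set and, of other lists, up to 4 genes with the smallest p. TUFM, the smooth muscle markers, UCP1, ADIPOQ and the members named for their levels lie outside this rule or were described after their values were seen. Alternatives covered scaling, pseudocount, filter, probe set choice, array weights, covariates, a replicate block, the samples that stand apart and leaving out each sample.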

Additional observations from a re-analysis of the deposited data

Results flagged for a closer look

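Sample values of the named members and of the list means were compared within each group of 5 or 6 samples, 132 groups in all, and a sample was singled out where its gap to the nearest other sample took up an unusually large part of the group's range (Dixon's criterion). Chance alone singles out about 1 in 20 independent groups, and 15 of the 132 were found. The 2 figures cannot be compared. Most of these members were named for an extreme change or r in these same data, and their values come from the same samples. Of these, 5 were old male 4, always the highest: the respiratory chain mean (11.58), MRPL40 (10.30), MRPS18B (10.25), MRPL15 (10.12) and MRPL12 (9.60). A further 6 were young male 1, again always the highest: the member mean (9.36), the respiratory chain mean (10.86), MRPL11 (9.92), MRPL57 (10.92), MRPL2 (10.43) and MRPL12 (9.29). Both samples stand apart from the other arrays. The remaining 4 were low values of MRPL28 in young male 2 (8.43), of MRPL42 in young male 3 (9.58) and of MRPL9 in old male 2 (7.31), and a high value of MRPL42 in young female 2 (11.10). Young male 3 is the mean of a close pair of arrays.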

How the results depend on the processing

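No member probe set passed the adjusted threshold in any of the 3 age comparisons under any of 35 alternatives. The median male change stayed above 0 under all of them (0.09 to 0.19), and so did the median difference between the sexes (0.02 to 0.17), while the female median ran from -0.09 to 0.10. With the stricter filter, which tests 26 members, 19 were higher in old males, 11 in old females and 17 in the difference. With no further normalisation 34 of 43 members were higher in old males, where quantile normalisation gave 29 of 42. Leaving out 1 sample at a time gave male medians of 0.088 to 0.191 with 26 to 33 members higher, female medians of -0.092 to 0.067 with 16 to 28 higher, differences of 0.024 to 0.172 with 22 to 30 above 0, and r values of 0.760 to 0.872 with the respiratory chain. Members at an unadjusted p below 0.05 in males numbered 1 to 7, with 7 under array weights and 3 without the samples that stand apart. The share over all tested genes under these alternatives is not given here, so these counts are not read as a result on the members. With the replicate number as a block the medians were 0.10 in males, -0.03 in females and 0.02 in the difference. After averaging, number 4 belongs to old male 4 alone, so this block removes that sample from the comparison. Deviations of samples with 1 number correlated at -0.42 to 0.51 over 30 pairs (median 0.06), so the numbers were not taken to pair samples. Signs reversed for a few named members. MRPS15 in females was 0.090 with 24 arrays, 0.43 without the samples that stand apart, 0.064 without old female 2 and 0.13 without old female 6 (-0.60 to 0.13 over all samples left out). MRPL57 in females was -0.31 without the samples that stand apart, -0.21 with the actin 3′ to 5′ ratio as a covariate and -0.11 without old female 2 (-0.11 to 0.51 over all samples left out), and in the difference 0.31, 0.46 and 0.095, and 0.046 without young male 1 (-0.53 to 0.095). MRPL11 in males was 0.16 without the samples that stand apart and 0.11 with array weights, MRPL42 in males 0.17 without old male 2 (-0.44 to 0.17), and MRPL24 in the difference 0.064 with the actin covariate. The cause of these shifts was not tested.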
